A study of Mus musculus with 9 samples.

Results

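Acetylated histone H2B (AcH2B) was compared between a control library and a library made after knockdown of malic enzyme 1 (ME1). The members are the regions of the deposited AcH2B peak lists of siControl and siME1, each region being a distinct combination of chromosome, start and end. The siControl list held 20046 regions and the siME1 list 54649, which is 74695 of the 203782 regions in the 9 lists of the series. The source of both was 3T3-L1, a mouse line of preadipocytes that form fat cells when induced. The cells were transfected with a negative control siRNA (siControl) or with an siRNA against ME1 (siME1), and adipocyte differentiation was induced in both 2 days later. Fixation with 1% formaldehyde followed after another 7 days, and chromatin was sheared to about 200 to 1000 bp before precipitation with 1 antibody against acetylated H2B. There was 1 library a side, and neither the number of cultures behind a library nor the acetylated lysine is given in the sources used here. The same series holds AcH3 and HDAC3 libraries and a knockdown of ME2. With 1 library a side no test between conditions was possible, every difference below is one between 2 libraries, and how far ME1 was depleted is not known from these data.

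Acetylation of the H2B tail is placed by acetyltransferases such as CBP and p300 and lies at active promoters and enhancers, where acetylated histones are read by bromodomain proteins. Histone deacetylases remove it, among them HDAC3, the catalytic subunit of the NCoR and SMRT corepressor complexes. ME1 is a cytosolic enzyme that turns malate into pyruvate and makes NADPH, which fat cells spend on fatty acid synthesis, and the title of the series names NADPH, HDAC3 and histone acetylation as its subject.

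The start sites of 5 genes show the range of what was found, and their sequences are printed to show how far they differ in CG dinucleotides, which are set in capitals. Each sequence runs from 250 bases before to 50 bases after a RefSeq start site of GRCm38.p6, on the strand of the gene. They are those of Me1, the knocked-down gene (chr9:86695865-86696164, minus strand), Pparg, the master regulator of fat cell differentiation (chr6:115360894-115361193, plus strand), and Cebpa, its partner factor (chr7:35119043-35119342, plus strand). Fasn, which encodes fatty acid synthase (chr11:120824498-120824797, minus strand), and Adipoq, which encodes the fat cell hormone adiponectin (chr16:23146286-23146585, plus strand), complete the set.
Me1: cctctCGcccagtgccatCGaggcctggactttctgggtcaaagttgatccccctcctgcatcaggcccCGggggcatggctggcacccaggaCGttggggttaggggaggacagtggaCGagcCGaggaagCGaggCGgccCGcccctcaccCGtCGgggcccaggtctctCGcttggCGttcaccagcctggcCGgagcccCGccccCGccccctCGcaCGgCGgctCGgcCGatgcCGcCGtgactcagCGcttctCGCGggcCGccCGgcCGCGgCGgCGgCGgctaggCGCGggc
Pparg: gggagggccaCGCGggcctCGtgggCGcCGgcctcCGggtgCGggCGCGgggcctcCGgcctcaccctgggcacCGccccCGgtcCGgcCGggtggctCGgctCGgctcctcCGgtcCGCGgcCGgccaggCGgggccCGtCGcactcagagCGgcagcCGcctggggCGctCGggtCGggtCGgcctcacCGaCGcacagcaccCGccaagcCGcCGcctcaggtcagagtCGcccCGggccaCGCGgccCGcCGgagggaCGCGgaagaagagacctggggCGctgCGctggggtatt
Cebpa: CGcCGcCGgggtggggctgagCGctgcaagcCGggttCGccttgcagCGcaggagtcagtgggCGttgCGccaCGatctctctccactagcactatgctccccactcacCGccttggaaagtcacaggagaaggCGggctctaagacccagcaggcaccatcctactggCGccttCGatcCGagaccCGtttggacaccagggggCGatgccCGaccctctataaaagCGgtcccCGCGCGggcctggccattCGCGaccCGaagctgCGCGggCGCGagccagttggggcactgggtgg
Fasn: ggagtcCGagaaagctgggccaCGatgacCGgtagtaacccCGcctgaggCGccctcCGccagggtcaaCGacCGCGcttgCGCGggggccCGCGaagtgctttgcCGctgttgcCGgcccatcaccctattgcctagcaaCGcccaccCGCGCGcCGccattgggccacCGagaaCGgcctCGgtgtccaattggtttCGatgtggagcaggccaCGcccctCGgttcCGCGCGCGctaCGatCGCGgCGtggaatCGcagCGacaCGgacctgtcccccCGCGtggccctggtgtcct
Adipoq: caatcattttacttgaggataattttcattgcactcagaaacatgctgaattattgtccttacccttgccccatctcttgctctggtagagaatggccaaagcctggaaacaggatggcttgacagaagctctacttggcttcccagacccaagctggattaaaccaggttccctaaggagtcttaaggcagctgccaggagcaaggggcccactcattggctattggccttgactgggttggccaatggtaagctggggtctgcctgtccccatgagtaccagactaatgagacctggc

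The Me1 window held 35 CG dinucleotides, that of Pparg 44, that of Cebpa 29, that of Fasn 39 and that of Adipoq 0. In siControl no AcH2B region touched the windows of Me1, Pparg, Cebpa or Adipoq, and a region of 290 bp with a summit pileup of 12.54 lay on the Fasn window, with its summit 40 bp after the start. Pileup is the deposited number of overlapping fragments at the summit, scaled so that 1 fragment counted 0.896 in siControl and 0.913 in siME1. In siME1 a region lay on the Me1 window with a pileup of 11.87 and on the Pparg window with 22.82, its summit 103 bp after the start. The siME1 region on the Cebpa window had a pileup of 10.96, with its summit 217 bp after the start. The Fasn window was covered in siME1 by a region of 1680 bp with a pileup of 34.69 and a summit at -644 bp relative to the start. That region also spanned a second siControl region, of 514 bp with a pileup of 25.98 and a summit at -608 bp, so at matching summits the values were 25.98 and 34.69. The Adipoq window, without a CG dinucleotide, carried no AcH2B region in either library. Of these 5 start sites, 3 were thus listed in siME1 alone, 1 in both libraries and 1 in neither.

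The siME1 list was longer and its regions covered more of the genome than those of siControl, while the median pileup of each whole list hardly differed. These medians are over different sets of regions, and at siControl regions found again in siME1 the pileup was mostly higher, as described below. It held 2.73 times as many regions and 3.03 times as many summits, and covered 41.73 Mb against 12.65 Mb. The median pileup was 16.12 in siControl and 15.52 in siME1, and the 10th and 90th percentiles were 12.54 and 24.19 in siControl against 10.96 and 25.56 in siME1. The median local background at the summits was 3.00 in both lists. The lists did not end at the same score: the lowest −log10 p was 3.50 in siControl and 3.03 in siME1, and the lowest pileup was 9.85 (11 fragments) against 8.22 (9 fragments). With the limit of 3.50 applied to both lists, the siME1 list was still 2.63 times as long. It was 2.52 times as long at a −log10 q of at least 3 (15285 against 38453 regions) and 2.73 times at 5 (8067 against 22016). The ratio was larger only at higher limits, with 1862 against 6982 regions at 10 (3.75 times) and 264 against 1537 at 20 (5.82 times). The number of reads per library and the share of cells that had differentiated were not measured here, so their part in the longer list was not tested.

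Most siControl regions were found again after ME1 knockdown. Of the 20046 siControl regions, 17479 (87.2%, Wilson 95% interval 86.72% to 87.65%, which covers counting error only) were overlapped by a siME1 region by at least 1 bp and are called kept. The other 2567 (12.8%) are called lost. In the siME1 list 40615 of 54649 regions (74.3%, 73.95% to 74.68%) overlapped no siControl region and are called new. The share kept went with the score in siControl, from 77.4% in the lowest-scoring of 10 equal groups of regions to 99.55% in the highest-scoring group. Lost regions were also smaller and lower than kept ones, with a median width of 345 bp against 488 bp and a median pileup of 14.33 against 17.02. At the same depth of list, that is with siME1 limited to its 20046 highest-scoring regions, 69.8% of the siControl regions were kept and 50.1% of the siME1 regions were new.

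New regions were lower than those that overlapped a siControl region. Their median pileup was 14.61 against 21.91, and their median width 443 bp against 995 bp. Of the new regions, 35.8% reached the median pileup of the siControl list and 3.51% its 90th percentile. A part of them lay beside siControl regions: 18.8% were within 1 kb of one, 40.2% within 5 kb and 73.6% within 50 kb. In bases, 10.58 Mb were covered in both libraries, which is 83.6% of the siControl coverage. Of the siME1 coverage, 25.4% was shared, 21.2% extended regions that were present in siControl, and 53.5% (22.3 Mb) lay in new regions.

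**Figure D1:**
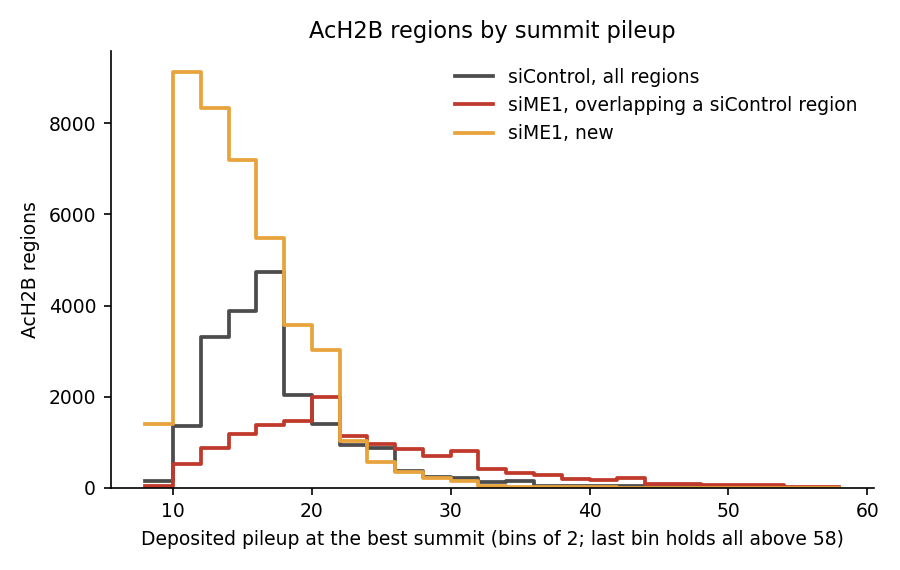
Number of AcH2B regions (y axis) by deposited summit pileup (x axis, bins of 2) for all siControl regions, siME1 regions that overlap a siControl region, and new siME1 regions. The new regions crowd at low pileup, with a median of 14.61, and the overlapping ones spread to the right, with a median of 21.91.

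Kept regions were wider and higher in siME1. The siME1 regions over a kept siControl region were together a median of 2.47 times as wide (quartiles 1.48 and 4.37). Of the 17479 kept regions 13028 (74.5%) were at least 1.5 times as wide and 341 (1.95%) were narrower by the same factor. Joining of neighbours was part of this, since 3253 siME1 regions each spanned 2 or more siControl regions, up to 11, and together held 7847 (44.9%) of the kept regions. Each such siME1 region entered with its full width for every siControl region it spanned, and its summit could be used for several. This raises the ratios of width and pileup over kept regions. The summit pileup was higher in siME1 at 15163 kept regions (86.8%), with a median ratio of 1.41 (quartiles 1.14 and 1.76), and 7352 (42.1%) reached 1.5 times the siControl value. At 149 (0.853%) it was lower by the same factor. The highest summit of a wide region has more positions to choose from, and at the 10732 kept regions whose summits lay within 150 bp of each other in the 2 libraries the median ratio was 1.27, with 80.9% higher in siME1. The lowest-scoring of the 10 groups had a median pileup ratio of 1.64 and the highest-scoring one 1.29. A kept region also had to pass the limit of the siME1 list, so low ratios could not appear at low regions.

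**Figure D2:**
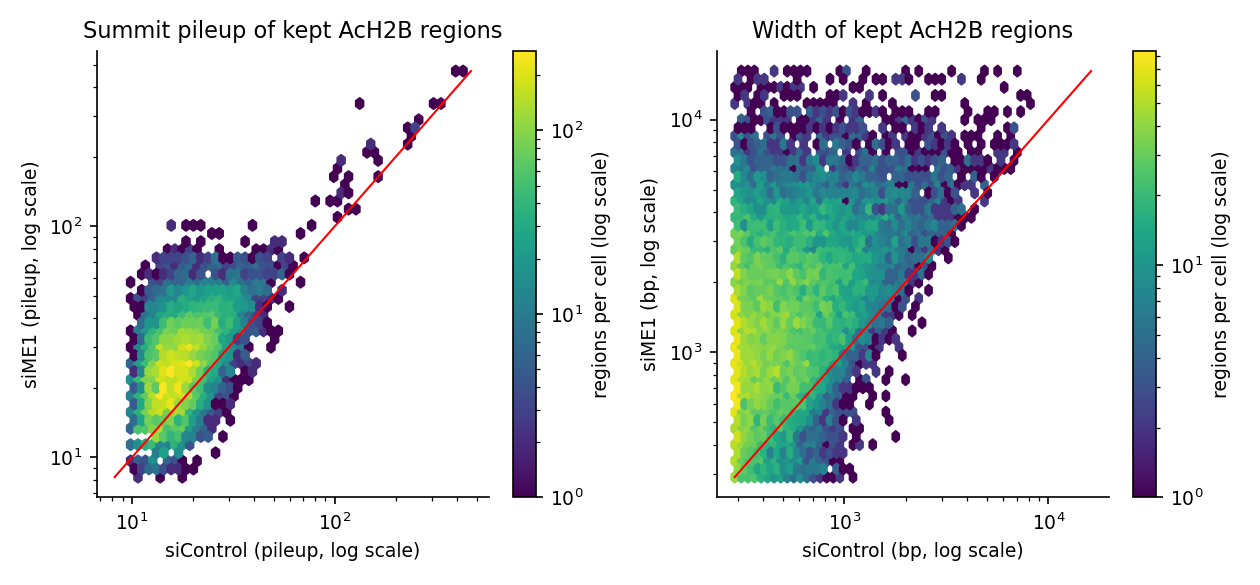
Summit pileup (left) and width (right) of the 17479 kept AcH2B regions in siControl (x axis) and siME1 (y axis), all on log scales, with the line of equal values in red and the number of regions per cell as colour. Most cells lie above the line in both panels, with median ratios of 1.41 for pileup and 2.47 for width.

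The long regions differed most in number. Regions of at least 1 kb numbered 2488 in siControl and 10291 in siME1 (4.14 times), those of at least 4 kb 78 and 568 (7.28 times), and those of at least 8 kb 1 and 62. The widest, 16134 bp, lay inside Arnt2, which encodes a bHLH-PAS transcription factor (chr7:84324804-84340937), and replaced 9 separate siControl regions that covered 57.0% of it. A region of 16117 bp lay at Vmp1, an autophagy gene (chr11:86573230-86589346), where 8 siControl regions covered 80.8%. Another of 14287 bp lay at Loxl1, which encodes an elastin cross-linking enzyme (chr9:58304202-58318488), where 7 siControl regions covered 79.9%. At the S100a3, S100a4 and S100a5 cluster (chr3:90596638-90609563) 12926 bp were marked, with a pileup of 64.82 against at most 43.89 in siControl. All 62 of these regions overlapped siControl regions, a median of 6 each, and a median of 77.5% of their bases (range 35.2% to 96.6%) was already covered in siControl. Only 13 of the 62 lay within 1 kb of a gene end, and 31 overlapped a gene. In siControl all but 1 of these places held 2 or more shorter regions, and the siME1 regions spanned the gaps between them. The exception, of 8981 bp inside Smg6, held 1 siControl region of 6946 bp.

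The same 62 regions differed in the AcH3 libraries, which were precipitated with another antibody. AcH3 regions covered a median of 12.7% of their bases in siControl and 75.8% in siME1, and the share was higher in siME1 at 61 of the 62. The exception lay 2943 bp from Meis1, a homeobox gene, with 80.2% in siControl and 65.5% in siME1. At the Arnt2 region AcH3 covered 0% in siControl and 61.1% in siME1, and near Dapk1, a death-associated kinase gene, 1.69% and 77.2% of a region of 15446 bp (chr13:60404733-60420178).

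**Figure D3:**
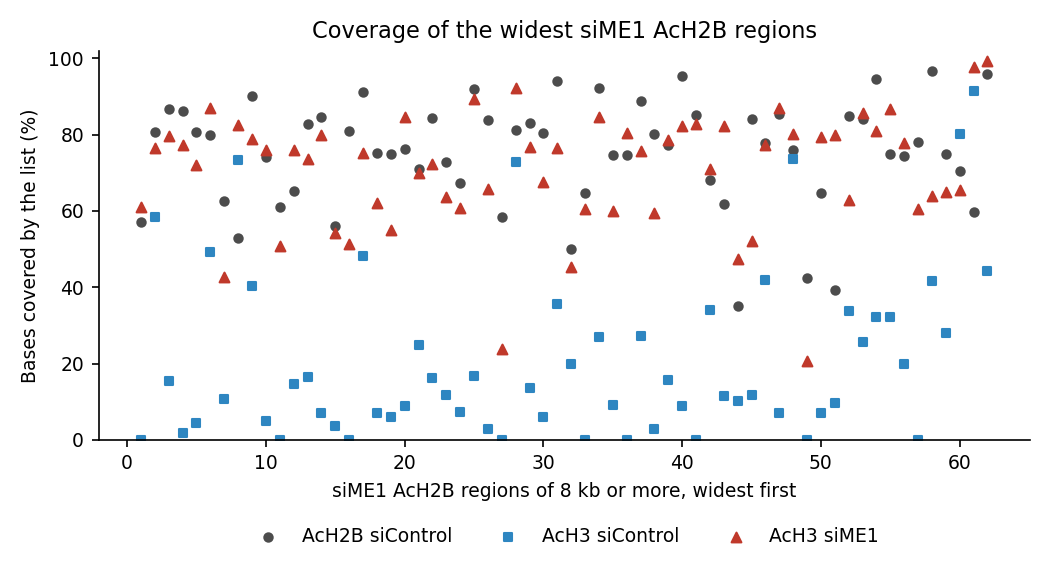
Share of bases (y axis, %) covered by AcH2B siControl, AcH3 siControl and AcH3 siME1 regions in each of the 62 siME1 AcH2B regions of 8 kb or more, ordered from the widest (x axis). Circles and triangles lie high, with medians of 77.5% and 75.8%, and the AcH3 siControl squares mostly low, with a median of 12.7%.

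Over all regions, AcH3 overlapped kept AcH2B regions more often than new or lost ones. Of kept siControl regions, 37.6% overlapped an AcH3 region in siControl and 71.3% in siME1. Of new regions, 19.1% and 31.4% did, and of lost regions 14.7% and 17.1%. The siME1 AcH3 list is itself longer, at 34799 regions against 21995, and covers 23.69 Mb against 20.62 Mb. In the AcH2B library made after ME2 knockdown, whose list held 32465 regions, 75.4% of the kept regions, 28.4% of the new and 25.9% of the lost regions were overlapped. HDAC3 regions of siControl, 4614 in all, overlapped 6.17% of the kept, 1.53% of the new and 1.21% of the lost regions. Most of that list was weak: its lowest −log10 q was 0.0, and only 154 of the 4614 regions reached 3. Its median pileup was 7.0 and its median width 229 bp. The antibody entry of that library gives HDAC3, but its sample name refers to H3. These overlaps are therefore not read as HDAC3 binding.

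By position, new regions resembled those present before. Within 1 kb of either end of a gene lay 15.7% of new regions, 14.1% of kept regions and 8.18% of lost regions. More than 50 kb from any gene end lay 33.1% of new, 31.4% of kept and 38.0% of lost regions. Siting near a gene end went with being kept: 92.1% of the 2667 siControl regions near gene ends were kept, against 86.7% inside genes and 86.2% between genes. The share widened was nearly the same in the 3 places, at 74.2%, 75.4% and 74.0%. Over the autosomes and the X chromosome the siME1 list was 2.13 times (chromosome 8) to 4.38 times (X) as long as the siControl list, while the share kept stayed between 84.8% and 89.7%. The median background at siControl summits also differed, at 4.0 on chromosome 8 and 2.19 on X, and its part in the ratios was not tested.

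The most prominent single new regions lay both at and far from genes. The highest-scoring one covered the start of Uchl3, a ubiquitin hydrolase gene (chr14:101653633-101654094), with a pileup of 41.08 (45 fragments, exact Poisson 95% interval 29.97 to 54.97). A new region of 2892 bp lay 145722 bp from Dkk2, a Wnt antagonist gene (chr3:132326026-132328917, pileup 39.26). The widest new region spanned 6980 bp and lay 28704 bp from Cradd (chr10:95139056-95146035, pileup 36.52). All 3 were also listed after ME2 knockdown and in AcH3 after ME1 knockdown, and of the 3 only the Uchl3 region overlapped AcH3 in siControl. The highest-scoring lost region lay 30733 bp from Hpf1 (chr8:60858808-60859659, pileup 26.87, 30 fragments), and it was listed after ME2 knockdown.

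Around start sites siME1 summits showed a dip flanked by a maximum on each side. Start sites were known for 17492 of the 21887 protein-coding genes. Within 2 kb of them lay 3905 siControl and 14043 siME1 summits. In siME1 the fullest bin of 200 bp lay 200 to 400 bp after the start with 1990 summits, the bin just before the start held 675, and the bin 400 to 200 bp before it 1471. The siControl counts in these bins were 438, 265 and 339, so the dip was shallower there. AcH2B summits were spread evenly over the sides, with 48.7% downstream in siControl and 51.3% in siME1, whereas 62.4% and 61.1% of AcH3 summits lay downstream.

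**Figure D4:**
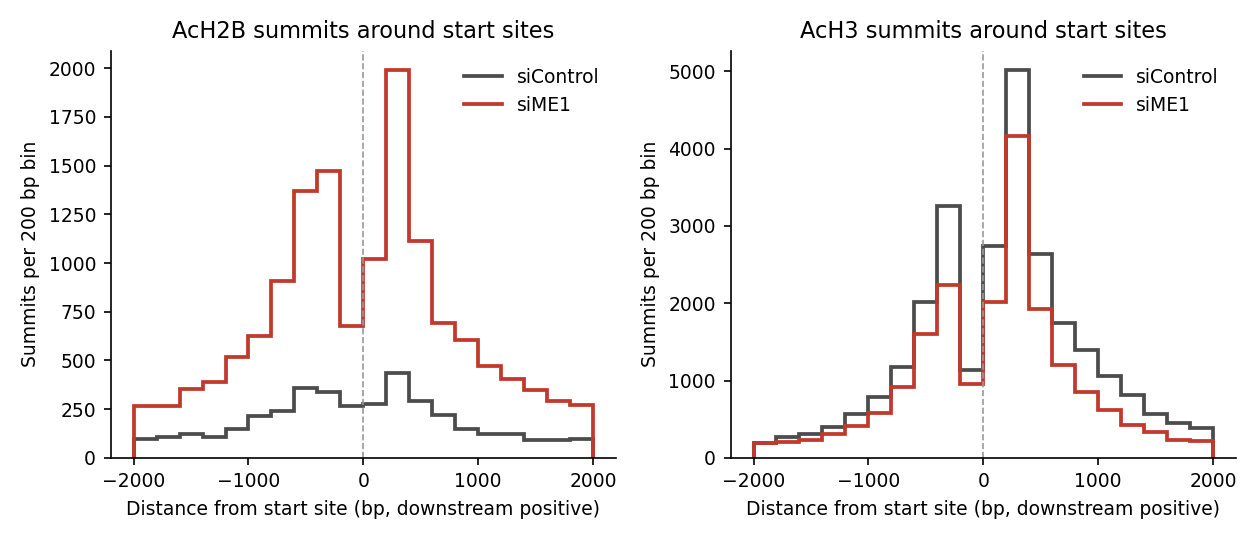
Number of AcH2B (left) and AcH3 (right) summits per 200 bp bin by distance from the nearest start site (x axis, bp, downstream positive) in siControl and siME1. The siME1 AcH2B line peaks at 1990 summits after the start with a dip of 675 just before it, while the 2 AcH3 lines have the same shape and siControl lies above siME1 in the tallest bin.

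The CG counts of the sequences printed above lie along a gradient over all 21263 start windows of 300 bases. The share carrying AcH2B in siME1 was 2.97% among windows with 0 to 2 CG dinucleotides and 35.3% among those with 31 to 67, and in siControl it was 1.33% and 9.31%. The median CG count was 22 in the 3067 windows gained, 21 in the 984 marked in both libraries, 19 in the 81 lost and 10 in the 17131 marked in neither. AcH3 followed the same gradient, from 1.74% to 80.1% of windows in siControl. Of windows that had AcH3 but no AcH2B in siControl, 37.0% in the richest CG class and 29.9% in the class of 21 to 30 were gained, against 49.4% of the 172 windows with 3 to 5. Motifs were searched as exact letters on both strands. The GC box GGGCGG was in 64.5% of gained, 63.1% of both, 41.9% of unmarked and 46.2% of all windows. The CCAAT box was in 31.5%, 27.6%, 40.1% and 38.2%, and the TATA box TATAAA in 6.03%, 6.91%, 14.1% and 12.6%. The ETS motif CCGGAAGT was in 10.5% of gained windows, 6.30% of those marked in both and 5.15% of all. Among windows with AcH3 in siControl the GC box was in 67.8% of gained and 71.9% of unmarked ones, CCAAT in 31.2% and 43.2%, TATAAA in 5.40% and 5.20%, and the ETS motif in 11.3% and 10.1%. These matches describe the letters in the windows and show no binding.

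At the level of genes, AcH2B was listed at far more gene ends after ME1 knockdown. A gene counted as marked where a region came within 1 kb of either annotated end, which can be the end far from its start. A gene marked in siME1 and not in siControl is called gained, and one marked in siControl alone is called lost. Of 21887 protein-coding genes 2214 were marked in siControl and 6699 in siME1. Gained were 4600 genes (21.0%), lost were 115 (0.525%), and 2099 were marked in both. Using start sites alone, 3715 of 17492 genes (21.2%) were gained and 58 (0.332%) lost. Gained genes mostly carried AcH3 in siControl already (90.6%), so that 50.3% of the 8285 genes with AcH3 but no AcH2B in siControl were gained, against 3.78% of the 11388 genes with neither mark. With siME1 limited to its 20046 highest-scoring regions, 1813 genes were gained and 415 lost. Widening the window to 5 kb left 51 of the 115 lost genes without a siME1 region, so at the other 64 a region lay close by.

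Among the 2099 genes marked in both libraries, 1886 had a higher pileup in siME1 and 213 a lower one, with a median ratio of 1.40. At 1670 of them the best region of each library overlapped, and there the median ratio was also 1.40. Single ratios were ranked only among genes whose siControl pileup reached the list median of 16.12. The largest of these was at Maml1, which encodes a Notch co-activator. Its pileup was 16.12 in siControl (18 fragments, interval 9.56 to 25.5) and 81.26 in siME1 (89 fragments, 65.3 to 99.99), in regions of 365 and 5259 bp. Exosc7, an RNA exosome subunit gene, had 19.71 and 56.60. At Maml1 and Exosc7 the regions compared lay at the end far from the start, and at start sites both genes were gained. At Enpp2, which encodes autotaxin, at Scx, a tendon transcription factor gene, and at Tprg, the siControl pileup was 16.12 in each, and the siME1 values were 51.13, 42.00 and 41.08. At these 3 genes the regions compared did not overlap, and at Enpp2 and Scx they lay at opposite ends of the gene. The lowest ratios in the same ranking were at Mageb3 (26.87 against 12.78), Trib3, a stress-induced pseudokinase gene (25.08 against 12.78), and Sncb (21.50 against 11.87). There too the siME1 region lay beside the siControl region and not on it, and at Trib3 the siControl region is itself among the highest-scoring lost ones. Kifc5b and Phf1 share 1 region, with 20.60 in siControl (298 bp) and 11.87 in siME1 (467 bp). At their start sites Tprg, Sncb and Kifc5b were marked in neither library.

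The highest-scoring gained genes besides Uchl3 had siME1 pileups of 34.69 to 56.60. Ddx19b, an RNA helicase gene, had 56.60, Arhgef10 44.74, Tmem204 43.82, and Ppl, which encodes periplakin, 42.91. For Arhgef10, Tmem204 and Ppl no start site was given, so whether their regions lay at gene starts is not known here. At Arhgef10 and Ddx19b no AcH3 end region was listed in either library. Tgfbi, a TGF-beta induced matrix gene, and Bahcc1, which was marked in both libraries at its start site, each had 36.52, Dnajb4 and Fubp1 share 1 region with 37.43, and Ccdc57 was called from the Fasn region of 34.69 described above. The 10 highest-scoring lost genes had siControl pileups of 16.12 to 26.87. Atg13, an autophagy gene, and its neighbour Harbi1 share 1 region of 24.19. Ctdspl2 owed its call to the same region as Mageb3 (26.87). Knl1, a kinetochore gene, had 20.60, Srrm2 19.71, Gzmk 18.81, Ror1 17.92, Psmd1 and Tmem86a 17.02 and Slc14a2 16.12. At its listed start site Ctdspl2 was marked in both libraries, Srrm2 was gained and Gzmk was marked in neither, so for these 3 the call depended on which site was used. No start site was given for Slc14a2.

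The lists of genes below are read against the 21.0% of all genes that were gained and the 0.525% that were lost, and no list was tested. Of all genes with AcH3 in siControl 40.5% were gained, and of those without it 3.72%. The higher share is the closer reference where most genes of a list carried AcH3. That held for 11 of 14 fatty acid synthesis, 20 of 23 NADPH-producing, 25 of 30 acetyltransferase, deacetylase and reader, and 23 of 25 constitutively used genes. It also held for 14 of 20 adipogenic transcription factors, 9 of 10 HDAC3 and NCoR genes, and 23 of 23 insulin and mTOR genes. The same was true of 15 of 18 NRF2 and redox, 20 of 22 cell cycle, 27 of 30 fibroblast and 21 of 21 immediate early genes. With equal numbers of regions 8.28% of all genes were gained. The share among genes with AcH3 was not computed under that setting, so 8.28% is not a like reference for lists that mostly carried AcH3. Of 20 adipogenic transcription factors, 8 were gained, 0 lost, 4 marked in both and 8 in neither. Pparg had a siME1 pileup of 22.82 (25 fragments, interval 14.8 to 33.7). Stat5a and Stat5b, signal transducers that act in fat cell differentiation, share 1 region of 2343 bp with a pileup of 25.56, and Srebf1, a regulator of lipid synthesis genes, had 18.26. Cebpa, Cebpd, Klf4 and Ebf1 were gained as well, although Ebf1 was marked in both libraries at its start site. Of those marked in both, Cebpb, an early factor of differentiation, had 22.39 and 31.04, Klf9 17.02 and 31.04, and Tle3 23.29 and 34.69. For Rxra, the partner of PPARγ, the regions compared lay at different ends of the gene. With equal numbers of regions 5 of the 8 were gained (Pparg, Klf4, Srebf1, Stat5a and Stat5b).

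Genes of lipid storage and fat cell products were gained about as often as all genes, at 6 of 24, with 3 marked in both and 15 in neither. Lpl, which encodes lipoprotein lipase, had 29.22 in siME1, Plin2, a lipid droplet coat gene, 20.09, Acsl1, a fatty acid activating enzyme, 19.17 and Pnpla2, the triglyceride lipase ATGL, 13.69. Gpd1, which makes glycerol phosphate, had 29.56 and 39.26, Dgat2, a triglyceride synthesis enzyme, 20.60 and 25.56, and Plin4 16.12 and 20.09. For Lpl, Gpd1 and Dgat2 no start site was given, so whether their regions lay at gene starts is not known here. Many defining fat cell genes had no AcH2B end region in either library, among them Adipoq, Fabp4, Plin1, Cidec, Lipe, Slc2a4 and Lep. Of the 30 preadipocyte and fibroblast genes, 22 were marked in both, 3 gained, 1 lost and 4 in neither. S100a4 had 43.89 and 64.82, Col1a1, a type I collagen gene, 34.04 and 44.74, and Col6a2 36.73 and 42.91. In 20 of the 22 the siME1 pileup was the higher one, with a median ratio of 1.39 against 1.40 over all genes marked in both. Dlk1, which encodes the preadipocyte factor that restrains differentiation, was listed as lost (13.44, 15 fragments), but was marked in both at its start site and not called lost with a −log10 q of at least 3 or within 5 kb. The labelled cell type was thus met by fibroblast and some adipocyte genes. None of the 12 hepatocyte, 12 neuronal and 12 muscle genes was marked in either library, and of 12 leukocyte genes 0 were marked in siControl and 2 in siME1, Cd68 (24.65, away from its start site) and Csf1r (13.69), while Ptprc and Itgam were not. In bulk chromatin a larger share of cells with a mark and more of the mark per cell cannot be told apart.

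Of 14 fatty acid synthesis genes, 5 were gained, 1 lost, 2 marked in both and 6 in neither. The gained ones were low: Fads1 and Fads2, fatty acid desaturase genes, had 15.52 and 14.61, Slc25a1, the citrate carrier, 14.61, Thrsp 10.96, and Acly, which makes acetyl-CoA from citrate, 10.04 (11 fragments, interval 5.01 to 18.0). Fasn had 25.98 and 34.69, and Scd2, a stearoyl-CoA desaturase gene, 31.35 and 30.13. Elovl6, a fatty acid elongase gene, was lost, with a siControl pileup of 12.54 (14 fragments), a call that ended with the window of 5 kb. With equal numbers of regions 0 of the 14 were gained and 1 was lost, and with a −log10 q of at least 3 the gained number was 2.

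Of 23 NADPH-producing enzymes, 8 were gained, 0 lost, 2 marked in both and 13 in neither. Me1 itself was gained, with a pileup of 11.87 (13 fragments, interval 6.32 to 20.3). Its AcH3 fold over background was 15.4 in siControl and 8.27 in siME1. The median fold of the whole AcH3 list was also lower in siME1, at 4.30 against 5.70 in siControl, so the lower value is not particular to Me1. Me3, the mitochondrial NADP-dependent malic enzyme, had 13.69, and Me2 had no AcH2B end region in either library. In the pentose phosphate pathway, G6pdx, the entry enzyme, had 16.43 and Pgls 18.26, Tkt had 14.33 and 15.52, and Pgd, Taldo1 and Rpia were unmarked. Nadk2, the mitochondrial NAD kinase, had 20.09, Idh1, the cytosolic isocitrate dehydrogenase, 15.52, Mthfd2l of folate metabolism 14.61 and Glud1 10.04. Nnt, the mitochondrial transhydrogenase, had 18.81 and 17.35. Tkt and Nnt had a median ratio of 1.00, and with equal numbers of regions both were lost and only Mthfd2l and Nadk2 of the list were gained.

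Of 10 genes for HDAC3, the NCoR complex and its partners, 3 were gained, 5 marked in both and 2 in neither. Hdac3 had no AcH2B end region in either library, nor had Gps2. Ncor1, the core corepressor, was gained with 17.35, Tbl1x, a WD40 subunit, with 15.52, although it was marked in both at its start site, and Zbtb33 with 14.61. These 3 were gained with equal numbers of regions as well. Bcl6, a repressor that recruits the complex, had 50.16 (interval 37.9 to 65.1) and 65.73 (51.4 to 82.8), in overlapping intervals. Nr1d1, the clock repressor REV-ERBα, had 31.35 and 52.95, and Tbl1xr1, the other WD40 subunit, 30.46 and 47.47. All 5 genes marked in both were higher in siME1, as were 1886 of the 2099 over all genes. Their median ratio was 1.45, against 1.40 over all genes marked in both.

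Of 30 acetyltransferase, deacetylase and acetyl reader genes, 9 were gained, 1 lost, 8 marked in both and 12 in neither. Kat5, which encodes TIP60, was gained at its ends with 29.22 and was marked in both at its start site. Kat2b, which encodes PCAF, Kat6a and the deacetylase gene Sirt7 each had 20.09. Crebbp, Kat7, Kat8, Ncoa1 and Hdac10 were the other gained genes. Ep300, which encodes p300, had 19.71 (interval 12.4 to 29.8) and 41.08 (29.97 to 55.0), and Brd2, a bromodomain reader gene, 43.89 and 60.26. Kat2a, which encodes GCN5, had 17.02 and 15.52 at the end far from its start, and was marked in neither library at its start site. Hdac11 was lost, with a siControl pileup of 17.02 at the end far from its start, and the call ended with the window of 5 kb and at start sites alone. With equal numbers of regions 4 were gained and 2 lost, with Hdac11 among the lost.

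Insulin and mTOR signalling had the largest gained share of the 16 lists, with 14 of 23 genes, 4 marked in both and 5 in neither. Of the 19 genes unmarked in siControl 73.7% were gained, beside 50.3% of all unmarked genes with AcH3 in siControl, which all 23 had. Tsc2, which encodes a brake on mTORC1, had 30.13, Irs1, an insulin receptor substrate, and Pik3r1, the regulatory subunit of PI3-kinase, 20.09 each, and Mtor 16.43, at the end far from its start. The others were Insr, Pik3ca, Akt2, Pdpk1, Gsk3a, Gsk3b, Foxo1, Foxo3, Rictor and Rheb, at 12.78 to 18.26, of which Akt2 was marked in both at its start site. Irs2 had 22.39 and 30.13, and Eif4ebp1 23.29 and 29.22 in regions that did not overlap. With equal numbers of regions 8 of the 14 were gained.

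NRF2 and redox genes had 4 gained and 7 marked in both of 18. Nqo1, a NAD(P)H quinone reductase gene, was gained with 23.74, Txn1, which encodes thioredoxin, with 15.52, and Gclm and Sod1 with 13.69 each. Srxn1 had 30.46 and 38.35 and Nfe2l2, which encodes NRF2, 26.87 and 33.78. All 7 genes marked in both were higher in siME1, as were 1886 of the 2099 over all genes. Immediate early and inflammatory genes were mostly marked in both, 15 of 21, with only Egr1 gained (14.61). Junb had 35.83 and 52.04, Klf6 34.94 and 39.26, and Ier2 25.08 and 22.82 in regions that did not overlap. Of 22 cell cycle genes 5 were gained and 6 marked in both, with Cdk2 at 18.26, Cdkn2a at 17.35 and Cdkn1a, which encodes p21, at 21.50 and 29.22. At start sites Cdk2 was marked in neither library and Cdkn2a in both, so these 2 calls hold for gene ends only. Constitutively used genes, taken as a reference for genes active in most cells, had 9 gained and 9 marked in both of 25. Rpl4, Eef1a1, Tubb5 and Gusb had siME1 pileups of 21.91, 21.00, 20.09 and 20.09, and Actb had 33.14 and 42.00. All 9 marked in both were higher in siME1, with a median ratio of 1.27 against 1.40 over all genes marked in both.

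**Figure D5:**
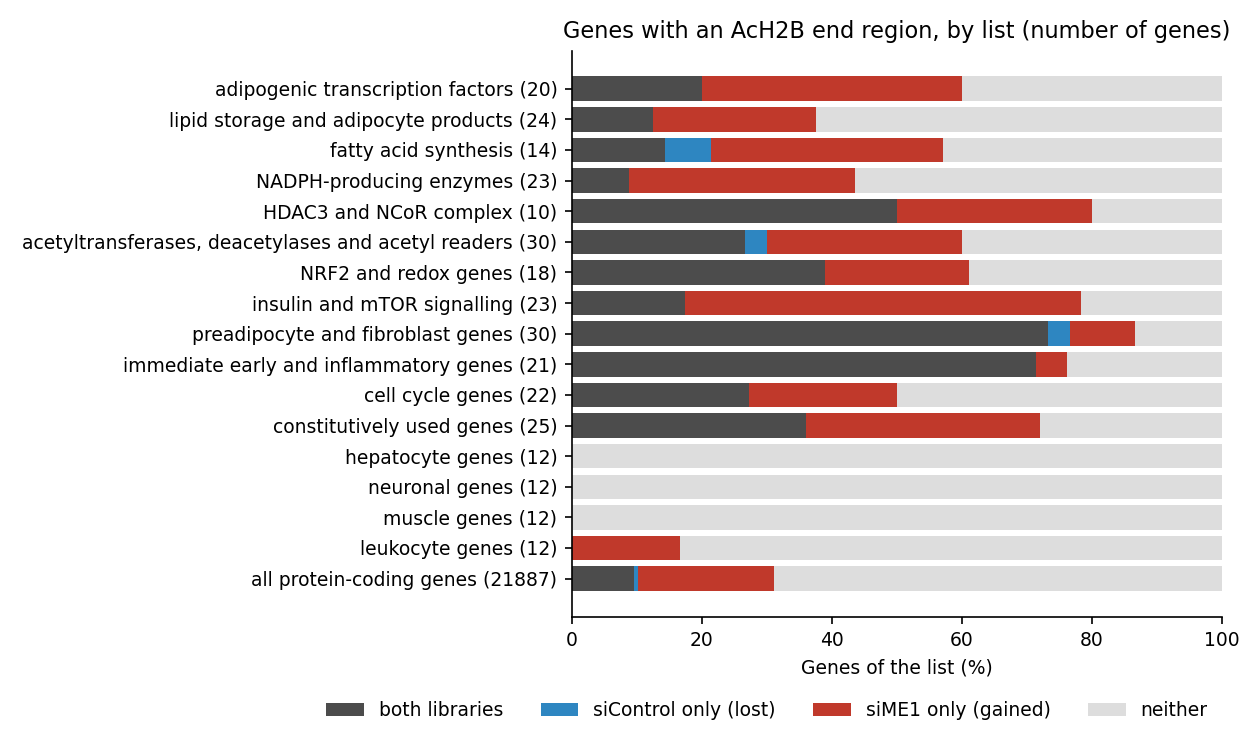
Share of genes (x axis, %) with an AcH2B end region in both libraries, in siControl alone (lost), in siME1 alone (gained) or in neither, for 16 gene lists and all protein-coding genes, with the number of genes in brackets. Fibroblast and immediate early genes are mostly marked in both, insulin signalling genes have 14 of 23 gained, and no hepatocyte, neuronal or muscle gene is marked.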

How the data were processed

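The 2 AcH2B peak lists, 1 for siControl and 1 for siME1, were the main data, and the AcH3, HDAC3 and AcH2B siME2 lists of the series were used for overlaps. The submitters' processing notes name MACS2, BWA, bedtools, deepTools and SAMtools. Their versions, settings and roles are not stated by any source at hand. The lists have 10 columns without a header, and what each holds was worked out from its values. The deposited pileup (column 6) is a coverage signal at each summit. The deposited −log10 p-value and −log10 q-value score each summit against local background. The deposited fold is the authors' ratio of pileup to background. Each list was made per library, as far as the labels say, and each row is a summit.

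Rows with the same first 3 columns were joined into 1 region, scored by the summit with the highest −log10 p. An overlap of 1 bp counted as shared, and widened means at least 1.5 times as wide. The size of 1 fragment was taken as the step that best divided the lower region pileups. These were whole multiples of it in 100% of cases, within the rounding of the deposited decimals. The same step gave the fragments behind each value, also at higher pileups, where this was not checked. The exact Poisson and Wilson 95% intervals cover counting error only, and the total reads of a library are unknown.

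The notes name the build mm8, but the list coordinates fit GRCm38: the last siControl region on chromosome 1 ended at base 195035034, and the scaffold names are those of GRCm38. Coordinates are therefore read as GRCm38, counted from 1. Genes are those of the RefSeq table for GRCm38.p6. It gives no strand, so start sites, strand and printed sequences came from the RefSeq promoter table of the same assembly, which matched 17492 of 21887 genes (79.9%).

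The members, the 16 gene lists (308 genes), the alternatives and the naming rule were chosen with earlier results of these data known. The rule named, per list, up to 4 gained, 2 lost and 3 genes marked in both with the highest scores. Over all genes it named the 10 highest-scoring gained and lost genes, the 5 highest and 5 lowest pileup ratios, Me1, Me2 and Hdac3, and the highest-scoring or widest regions. The picks by score or ratio over all genes left out symbols of Gm plus digits or ending in Rik. They also left out regions with a background above 5 times the list median. Pileup ratios were ranked only where the siControl pileup reached its list median. Other genes were named, and the 5 start sites and the wide regions shown, after their values were seen. Some genes that the rule names are not reported here. The overlap routines were tested on simulated regions against a direct search. Python 3.11.15, numpy 2.4.6, pandas 2.3.3, scipy 1.17.1 and matplotlib 3.10.9 were used.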

Additional observations from a re-analysis of the deposited data

How the results depend on the processing

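With 1 library a side no library could be left out, and no spread between cultures is known. No paired analysis was possible because each condition has 1 library. The number of regions kept, new and gained depends on how many regions are compared. With equal numbers of regions (a ratio of 1.00 by construction), 69.8% of siControl regions were kept, 50.1% of siME1 regions were new, 81.1% of kept regions were widened, and 1813 genes were gained and 415 lost. New regions then lay within 1 kb of a gene end in 20.4% and on siControl AcH3 regions in 26.9% of cases.

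With a −log10 q of at least 3 in both lists, the shares were 85.9% kept, 72.3% new, 75.5% widened, 17.3% of new regions near gene ends and 22.5% with AcH3. With an equal −log10 p limit 86.7% were kept and 73.7% new. Requiring a reciprocal overlap of 50% left 27.4% kept and 89.95% new, since a widened region can fail it. With the same rule applied to AcH3 as well, 6.11% of new regions overlapped AcH3. Using the widest single siME1 region, 72.8% were widened. Within 5 kb in place of 1 kb, 27.2% of new regions were near gene ends. At start sites alone, an alternative added after seeing the data, 58 genes were lost. The median pileup ratio at kept regions stayed between 1.22 and 1.53 in all alternatives run, the lowest with reciprocal overlap and the highest with equal numbers of regions. Gained genes outnumbered lost genes in each alternative run, at 81.4% of changed genes with equal numbers and 97.3% to 98.3% in the other alternatives over gene ends, and by 3715 to 58 at start sites alone.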
